A study of Mus musculus with 12 samples.

Results

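Interferon-stimulated genes were followed through the first 14 days of a high-fat diet in mouse adipose tissue. The set was a named list of 37 genes, set by gene name and not by a measured value, though with earlier results of these data known. Of these, 35 could be read, each from its brightest probe set over the 12 arrays, among 18193 genes named by 1 symbol. Isg15 was read only by a probe set shared with another symbol, and no probe set was listed for Ifi44. The levels of both were not analysed here. Adipose tissue RNA of C57Bl/6 mice was measured on 12 single-colour Affymetrix arrays, 4 in each of 3 groups. All mice ate standard chow, with 13% of calories from fat, up to an age of 6 weeks. The chow group stayed on it, and the others ate a high-fat diet (HFD) with 46% of calories from fat for 5 or 14 days. The fat depot, the sex of the mice and the age of the chow group at collection are not given, so age and diet cannot be told apart. The labels call the 4 samples of a group experimental replicates and do not say that each came from its own animal, so each p below measures the spread between these samples.

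Interferons are signalling proteins that cells release on sensing viral nucleic acid or under stimulation by other immune cells. Type I interferons bind the IFNAR1-IFNAR2 receptor, whose kinases JAK1 and TYK2 activate the ISGF3 complex. It contains STAT2 and IRF9 and binds the interferon-stimulated response element (ISRE) in promoters. Interferon gamma acts through a separate receptor and the gamma-activated site (GAS) in promoters, and drives GTPase genes such as Irgm1, Igtp and Gbp2. In adipose tissue both adipocytes and resident immune cells can respond, and a low tonic interferon signal maintains basal expression of many of these genes.

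Adipocyte transcripts marked the tissue as labelled: Adipoq stood between 14.90 and 15.05 and Fabp4 between 15.16 and 15.25 on the log2 scale in all 12 arrays. Array medians lay between 8.09 and 8.14. Arrays of 1 group differed in RNA of neighbouring tissues. The 4 measured epididymis markers stood a median of 3.24, 3.59 and 4.66 log2 units above their chow means in 5-day arrays 1 to 3 and 6.55 above in 14-day array 4, and from −0.54 to 0.60 elsewhere. Macrophage markers were at a median of −1.37 and adipocyte markers at −0.41 in that same 14-day array. Values without 5-day array 4 or 14-day array 4 stand beside several of the results that those arrays moved. Without 5-day array 4, each 5-day array left had high epididymis markers, so diet and epididymis RNA cannot be told apart there at 5 days.

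At 14 days of HFD, 32 of the 35 measured members had a lower mean than in chow, where 46.2% of all genes did. Their differences ran from −0.79 to 0.03 on the log2 scale with a median of −0.27, against 0.01 over all genes. In 7 members, all 4 arrays of the 14-day group lay below all 4 chow arrays (20% of the members, 2.01% of all genes). These were Oasl2, Zbp1, Oas1a, Irgm1, Usp18, Ifit1 and Xaf1. Without 14-day array 4 the count was 9, beside 3.08% of all genes, and without 14-day array 2 it was 11, beside 6.35%. In each comparison, leaving out an array can only keep or raise a count of groups that do not overlap. Such counts therefore do not show whether the separation holds without that array. No member was called at an adjusted p under 0.05 (limma, Benjamini-Hochberg over 18193 genes, lowest member adjusted p = 0.494), and 0% of all genes were. At an unadjusted limma p under 0.05, 17 members were lower and 0 higher, against 3.96% and 3.02% of all genes. That count of 17 was 9 without chow array 3, 9 without chow array 4 and 11 without 14-day array 4. The share of all genes was not counted with these arrays left out. With limma's array weights, which gave 14-day array 4 the lowest weight of 0.13, 13 members were called and all were lower, while 10.1% of all genes were called. In bulk tissue, fewer cells of a type and less RNA per cell cannot be told apart.

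At 5 days, 29 of the 35 members had a lower mean than in chow (50.7% of all genes), with a median of −0.15 against −0.002 over all genes and a range from −0.67 to 0.16. Oasl2 and Igtp were the 2 members whose groups did not overlap, a share of 5.71% beside 4.08% of all genes. Again 0 members and 0% of all genes were called by limma (lowest member adjusted p = 0.359). At an unadjusted limma p under 0.05, 6 members were lower and 0 higher, beside 5.39% and 4.24% of all genes: Herc6, Ifih1, Igtp, Irgm1, Oasl2 and Zbp1. Without chow array 3 that count was 3 and without chow array 4 it was 2, and the median was −0.07 in each case. Without 5-day array 4 that count was 9, and 9 members then did not overlap with chow, beside 10.4% of all genes. The share of all genes at that unadjusted p was not counted with an array left out.

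Between the HFD groups, 27 of 35 members were lower at 14 than at 5 days (45.4% of all genes), with a median of −0.15 against 0.009 over all genes. In 5 members the groups did not overlap, 14.3% beside 0.346% of all genes: Bst2, Ifit1, Ifit3, Oas1a and Xaf1. Both shares can again only stay or rise with an array left out. There were 7 members beside 2.27% of all genes without 14-day array 4, and 9 beside 1.24% without 14-day array 2. Without 5-day array 4, it was 5 members beside 1.52%. Without both HFD arrays numbered 4, it was 7 members beside 8.87% of all genes. None of the members and 0% of all genes were called (member adjusted p = 0.999 by limma). At an unadjusted limma p under 0.05, 4 were lower (Bst2, Ifit3, Oas1a and Stat2) and 0 higher, beside 0.846% and 1.59% of all genes. The median was −0.07 without 5-day array 4 and −0.08 without 14-day array 4. Without 5-day array 1, 5-day array 4 or 14-day array 3, 0 members reached that unadjusted p, and the share of all genes was not counted there. The 2 comparisons with chow share the chow arrays, so their values are set side by side below and their likeness is not used.

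**Figure D1:**
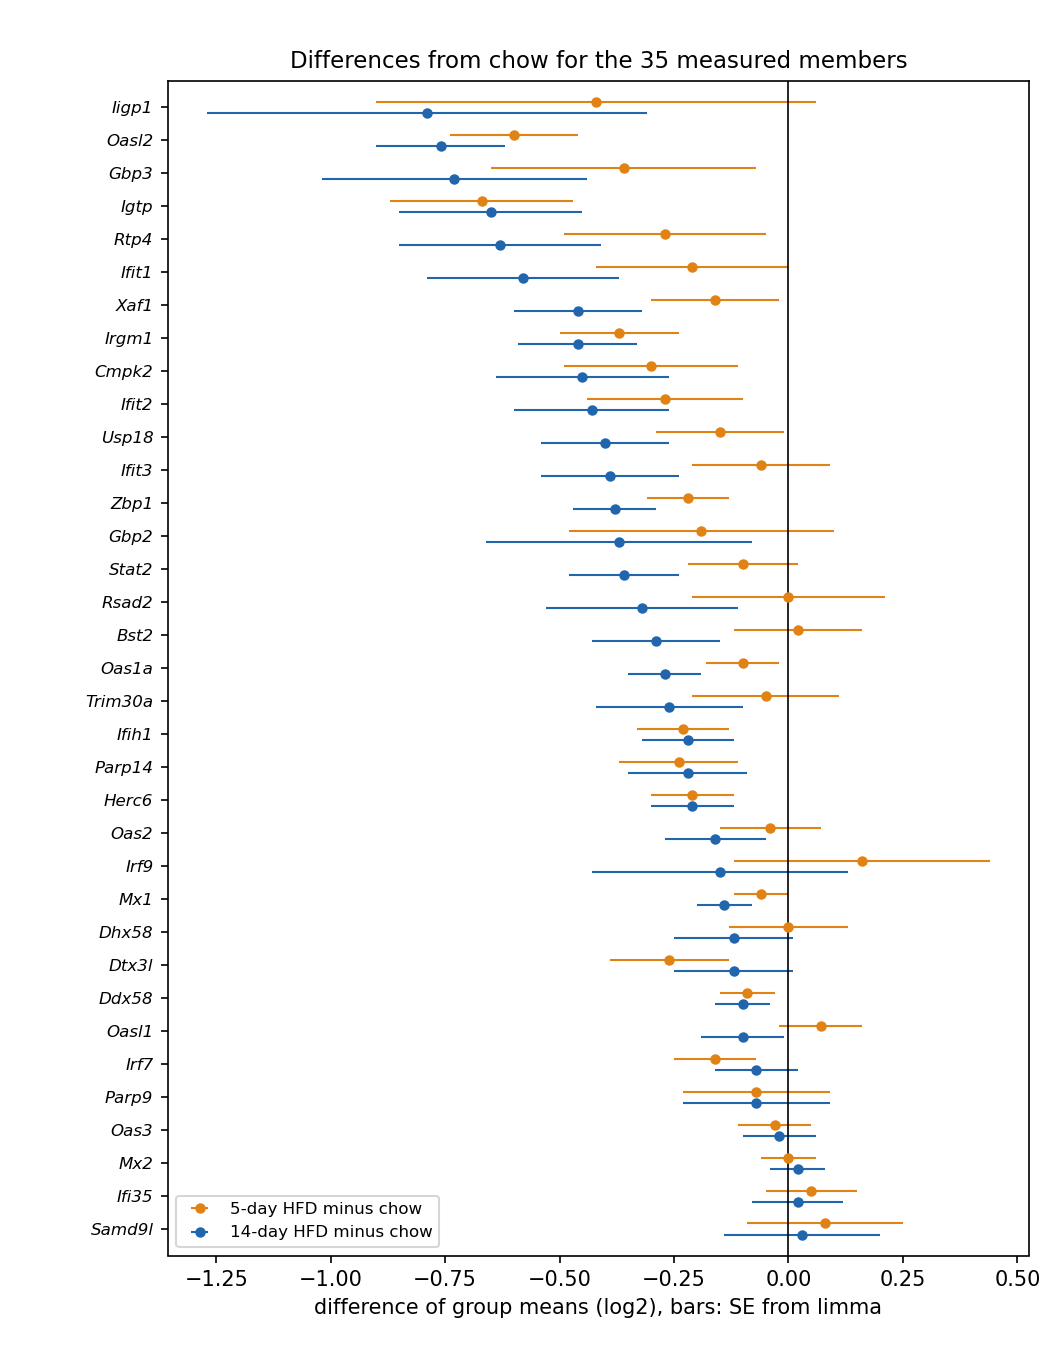
Difference from chow in log2 units (x axis) for each of the 35 measured members (rows, ordered by the 14-day difference), as points with the standard error (SE) from limma as bars, at 5 days (orange) and 14 days (blue) of HFD. At 14 days the points run from −0.79 for Iigp1 to 0.03 for Samd9l and 32 lie below 0, and at 5 days 29 lie below 0.

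RefSeq's promoter windows were searched for the sequence ISGF3 binds, since all members are known as interferon targets. Of the 37 members, 27 were matched in the table (build GRCm38.p6), and the 250 bases before each start were read. The core of the ISRE, GAAANNGAAA on either strand, was present in 13 of the 27 members (48.1%) and in 936 of 27025 genes of the table (3.46%). The core of the GAS, TTCNNNGAA on either strand, was present in 4 of 27 (14.8%) against 8.13% of the genes. These letters are their own reverse complement in form, so a match on 1 strand is a match on the other. Among the measured members with a window, the ISRE core was present in 3 of 5 whose arrays did not overlap with chow at 14 days and in 9 of the 20 others. A match describes letters in this window only, and the start used can lie inside the gene's full RefSeq span. It does so for Ifit3 and Xaf1, whose spans begin at chr19:34583119 and chr11:72301461. The stretch up to the start is shown for the 6 members of smallest p at 14 days that hold the ISRE core, because they show where it lies, and for Oasl2 and Xaf1, which do not hold it within 250 bases. Each reads 5′ to 3′ on the gene's strand, with ISRE matches in capitals. The windows are chr5:120907526-120907675 (minus strand), chr11:48871421-48871570 (minus), chr11:58199406-58199555 (plus), chr10:128270266-128270497 (plus), chr19:34640739-34640888 (plus), chr19:34583363-34583528 (plus), chr5:114896784-114896933 (plus) and chr11:72301479-72301628 (plus).
Oas1a: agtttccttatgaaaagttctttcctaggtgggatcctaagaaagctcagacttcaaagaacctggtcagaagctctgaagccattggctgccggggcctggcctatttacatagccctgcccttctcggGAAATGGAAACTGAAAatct
Irgm1: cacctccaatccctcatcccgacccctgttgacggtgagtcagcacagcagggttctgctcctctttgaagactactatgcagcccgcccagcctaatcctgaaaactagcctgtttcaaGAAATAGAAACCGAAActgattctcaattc
Igtp: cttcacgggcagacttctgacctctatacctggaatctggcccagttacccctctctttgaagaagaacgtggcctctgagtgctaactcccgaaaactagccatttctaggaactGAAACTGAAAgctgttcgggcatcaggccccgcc
Stat2: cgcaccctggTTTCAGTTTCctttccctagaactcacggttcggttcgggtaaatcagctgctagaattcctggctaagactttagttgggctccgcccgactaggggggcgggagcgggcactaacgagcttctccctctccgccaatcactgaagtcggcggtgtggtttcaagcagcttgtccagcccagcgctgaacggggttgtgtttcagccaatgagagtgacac
Ifit1: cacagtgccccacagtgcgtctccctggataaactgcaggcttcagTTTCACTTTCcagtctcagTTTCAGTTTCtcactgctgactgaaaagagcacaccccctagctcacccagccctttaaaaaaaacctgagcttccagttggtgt
Ifit3: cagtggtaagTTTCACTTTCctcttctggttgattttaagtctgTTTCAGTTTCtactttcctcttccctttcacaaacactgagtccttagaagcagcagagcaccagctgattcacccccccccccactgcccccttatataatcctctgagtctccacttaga
Oasl2: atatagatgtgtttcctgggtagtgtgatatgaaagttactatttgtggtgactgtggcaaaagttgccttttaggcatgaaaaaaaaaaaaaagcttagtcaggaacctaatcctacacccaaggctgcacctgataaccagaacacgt
Xaf1: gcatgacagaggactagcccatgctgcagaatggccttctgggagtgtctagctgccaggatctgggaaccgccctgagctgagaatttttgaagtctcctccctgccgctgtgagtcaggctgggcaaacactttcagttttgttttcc
In Oas1a, Irgm1 and Igtp the core lies close to the start, its first base 20, 30 and 34 bases before it, and in Oas1a and Irgm1 a second, overlapping match begins 6 bases further on. In Ifit1 and Ifit3 it occurs at 2 places on the opposite strand, at 104 and 85 and at 156 and 122 bases before the start, and in Stat2 at 222 bases. Bst2 and Rsad2 hold the core too, first at 130 and 120 bases before the start. Of a wider list of 55 other interferon-induced genes with a window, 19 hold it (34.5%).

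The array-by-array values show that the 4 chow arrays themselves differed over these genes. Chow arrays 3 and 4 held the highest chow value of 14 and 16 members, and chow arrays 1 and 2 the lowest of 17 and 14. The median member stood at −0.18, −0.14, 0.17 and 0.15 from its chow mean in chow arrays 1 to 4. In the 5-day arrays these medians were −0.16, −0.20, −0.22 and 0.05, and in the 14-day arrays −0.25, −0.21, −0.33 and −0.37. Chow arrays 1 and 2 thus lay at about the level of 5-day arrays 1 to 3, while each 14-day array lay below every chow array in this median. The median SD of a member was 0.21 in chow, 0.19 at 5 days and 0.14 at 14 days, against 0.09, 0.12 and 0.14 over all genes. In 5-day array 4, 26 of 35 members had the highest value of their group, and in 14-day array 4, 18 had the lowest of theirs.

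**Figure D2:**
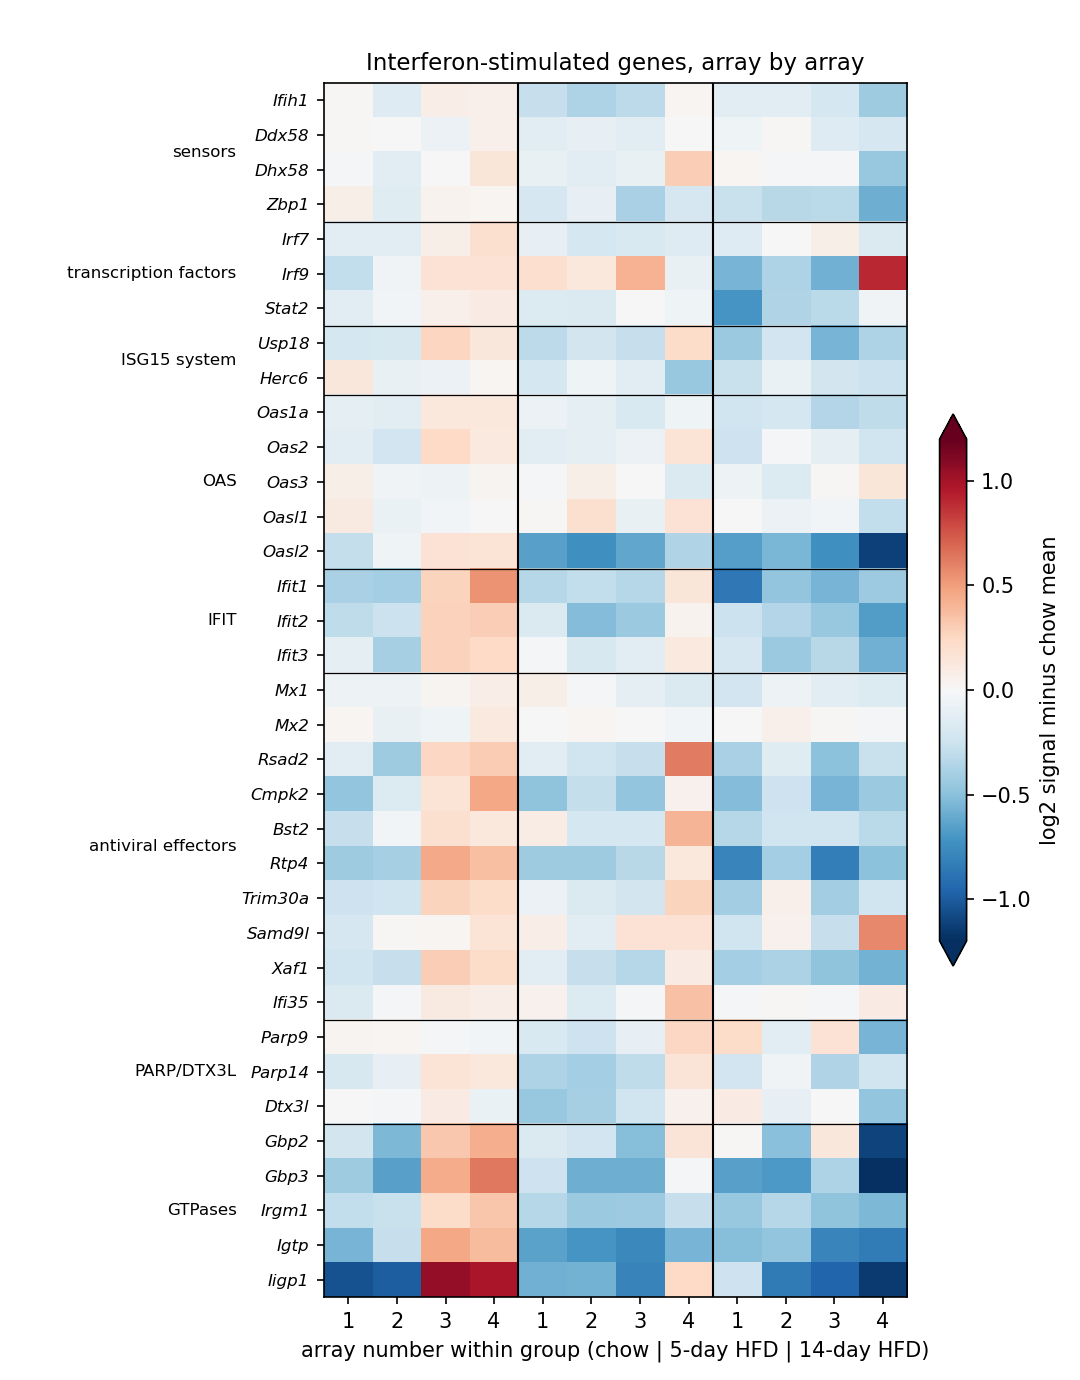
Log2 signal minus the chow mean (colour, red above and blue below, capped at 1.2 units) for the 35 measured members (rows, by role) in the 12 arrays (columns, by group and array number). Chow arrays 3 and 4 are red for most members and chow arrays 1 and 2 pale or blue, 5-day array 4 is redder than the other 5-day arrays, and the 14-day arrays are mostly blue.

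Among the nucleic acid sensors, Zbp1, which detects Z-form nucleic acid and can start necroptosis, was the member with the second smallest p at 14 days. Its log2 signal was 8.43, 8.21, 8.40 and 8.38 in chow, 8.15, 8.26, 7.97 and 8.15 at 5 days, and 8.09, 8.02, 8.03 and 7.77 at 14 days. The 14-day arrays all lay below chow, and at 5 days only array 2 reached into the chow range. The difference was −0.38 ± 0.09 (SE) at 14 days (limma adjusted p = 0.51) and −0.22 ± 0.09 at 5 days (adjusted p = 0.467), with −0.15 and −0.10 at its second probe set. Ifih1, which encodes MDA5, a sensor of long double-stranded RNA, stood at 10.36, 10.20, 10.43 and 10.41 in chow, 10.07, 9.98, 10.04 and 10.37 at 5 days and 10.22, 10.22, 10.14 and 9.92 at 14 days. Its 5-day arrays 1 to 3 were below chow and array 4 was among them, with a mean difference of −0.23 ± 0.10. Without both HFD arrays numbered 4 it was −0.32 (limma adjusted p = 0.0169), where every 5-day array left had high epididymis markers. With each array's epididymis marker mean as a term in the fit, the 5-day difference of Ifih1 was −0.08. Ddx58 (RIG-I) and Dhx58 (LGP2), related RNA helicases, differed by −0.10 ± 0.06 and −0.12 ± 0.13 at 14 days. Without 14-day array 4, Dhx58 was at −0.00.

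Of the transcription factors, Stat2 and Irf9 encode parts of ISGF3, and Irf7 amplifies type I interferon production. Stat2 stood at 8.64, 8.73, 8.82 and 8.86 in chow, 8.60, 8.59, 8.76 and 8.71 at 5 days and 8.05, 8.40, 8.44 and 8.72 at 14 days. In the 14-day group arrays 1 to 3 lay below chow and array 4 lay within it, giving −0.36 ± 0.12 against chow (limma adjusted p = 0.662) and −0.26 ± 0.12 against 5 days (adjusted p = 0.999). The second probe set of Stat2 gave −0.24 and −0.07. Irf9 was at 9.36, 9.62, 9.83 and 9.83 in chow, 9.86, 9.79, 10.08 and 9.57 at 5 days and 9.10, 9.29, 9.08 and 10.56 at 14 days. Its first 3 arrays at 14 days were below all chow arrays, and the last was the highest of the 12. The 14-day difference of Irf9 was −0.15 with that array and −0.50 without it. Irf7 stood at 9.64, 9.65, 9.85 and 9.97 in chow, 9.68, 9.57, 9.59 and 9.62 at 5 days and 9.62, 9.78, 9.85 and 9.60 at 14 days. These groups overlapped, with differences of −0.16 ± 0.09 at 5 days and −0.07 ± 0.09 at 14 days.

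In the ISG15 system, Usp18 removes ISG15 from proteins and also restrains signalling at the type I receptor, and Herc6 is the mouse ligase that attaches ISG15. Usp18 stood at 8.17, 8.19, 8.64 and 8.52 in chow, 8.07, 8.16, 8.10 and 8.60 at 5 days and 7.93, 8.15, 7.82 and 8.01 at 14 days. The 14-day arrays were all below chow, by as little as 8.15 against 8.17 at the nearest pair, and 5-day array 4 lay apart from its group. The difference was −0.40 ± 0.14 at 14 days (limma adjusted p = 0.67) and −0.15 ± 0.14 at 5 days. The 5-day value of Usp18 was −0.27 without 5-day array 4 and −0.06 without chow array 3. Herc6 differed by −0.21 ± 0.09 at both times, and its 4 probe sets gave −0.21 to −0.48 at 14 days.

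The OAS enzymes make the 2′-5′ linked adenylates that activate RNase L, and the OAS-like protein of Oasl2 also carries ubiquitin-like domains. Oasl2 had the smallest p of all members in both comparisons with chow. Its log2 signal was 9.17, 9.41, 9.63 and 9.62 in chow, 8.81, 8.72, 8.83 and 9.10 at 5 days and 8.80, 8.91, 8.72 and 8.34 at 14 days. Every HFD array lay below every chow array. The difference was −0.60 ± 0.14 at 5 days (a ratio of 0.662, limma adjusted p = 0.359) and −0.76 ± 0.14 at 14 days (0.589, adjusted p = 0.494). Without both HFD arrays numbered 4, these were −0.67 (limma adjusted p = 0.00567) and −0.65 (adjusted p = 0.138). Every 5-day array left in that fit had high epididymis markers, so at 5 days diet and epididymis RNA cannot be told apart there. Oas1a, a catalytic OAS gene, stood at 9.72, 9.70, 9.97 and 9.97 in chow, 9.77, 9.73, 9.66 and 9.79 at 5 days and 9.60, 9.63, 9.49 and 9.54 at 14 days. The 14-day arrays were below all others, at −0.27 ± 0.08 against chow (adjusted p = 0.607) and −0.17 ± 0.08 against 5 days (adjusted p = 0.999). Oas2, Oas3 and Oasl1 overlapped with chow at both times and differed by −0.16 ± 0.11, −0.02 ± 0.08 and −0.10 ± 0.09 at 14 days. Oasl1 is the neighbour of Oasl2 on chromosome 5, and Oas1a, Oas2 and Oas3 lie in 1 cluster on the same chromosome.

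**Figure D3:**
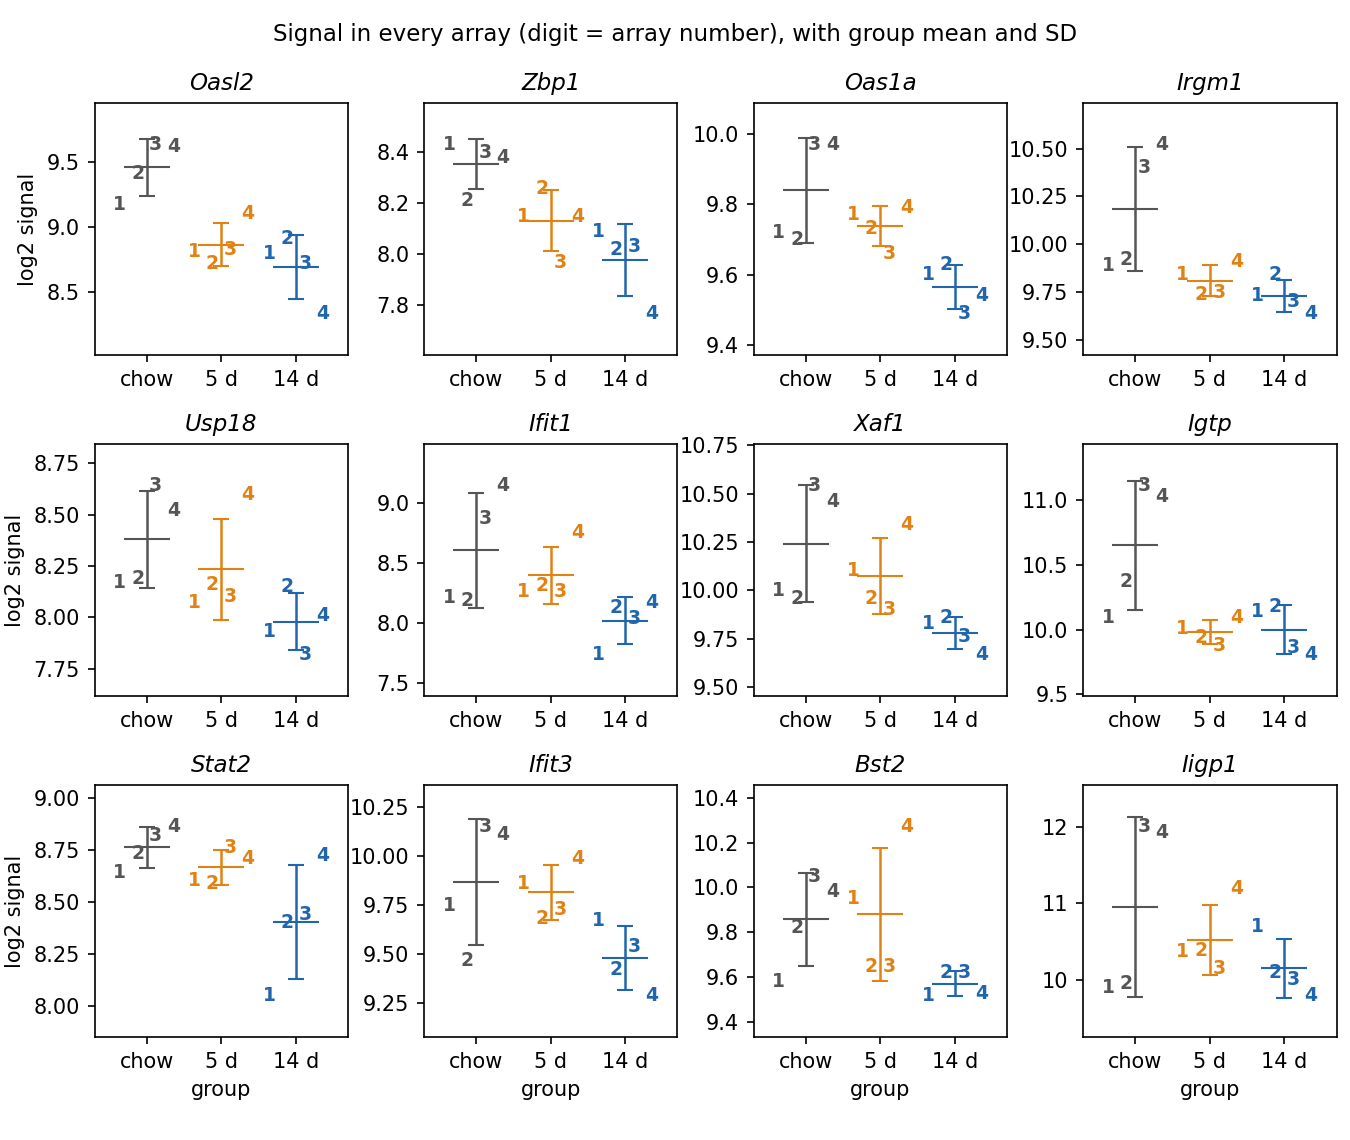
Log2 signal (y axis, a separate scale in each panel) of 12 members in chow, 5-day and 14-day HFD arrays, with each array drawn as its number, and the group mean and SD (n = 4) as lines. For Oasl2 every HFD array is below the lowest chow array at 9.17, for Bst2, Ifit1, Ifit3, Oas1a and Xaf1 the 14-day arrays are below all 5-day arrays, and for Iigp1 chow arrays 3 and 4 are near 12 and arrays 1 and 2 near 10.

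IFIT proteins bind viral RNA that lacks the host cap methylation and block its translation, and Ifit1, Ifit2 and Ifit3 lie together on chromosome 19. Ifit1 stood at 8.21, 8.19, 8.87 and 9.14 in chow, 8.26, 8.31, 8.26 and 8.75 at 5 days and 7.74, 8.13, 8.04 and 8.17 at 14 days. All 14-day arrays lay below the other 8, narrowly so at 8.17 against 8.19, while the 5-day arrays lay within the chow range. The differences from chow were −0.21 ± 0.21 at 5 days and −0.58 ± 0.21 at 14 days (limma adjusted p = 0.67), and the latter was −0.41 without chow array 4. The 5-day value of Ifit1 was −0.03 without chow array 4 and −0.34 without chow array 1. Ifit3 was at 9.75, 9.47, 10.15 and 10.11 in chow, 9.86, 9.68, 9.73 and 9.99 at 5 days and 9.67, 9.42, 9.54 and 9.29 at 14 days. Here the 14-day arrays lay below the 5-day arrays, at the nearest pair by 9.67 against 9.68, but not below chow array 2. It differed by −0.06 ± 0.15 at 5 days, −0.39 ± 0.15 at 14 days and −0.33 ± 0.15 between the HFD groups. Ifit2 differed by −0.27 ± 0.17 and −0.43 ± 0.17 from chow at 5 and 14 days.

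The antiviral effectors were the most mixed role, with 6 of the 10 measured lower at 5 days and 7 lower at 14 days. Without 5-day array 4 the former was 8, and without 14-day array 4 the latter was 9. Xaf1, a pro-apoptotic interferon target, stood at 10.00, 9.96, 10.54 and 10.46 in chow, 10.10, 9.96, 9.90 and 10.34 at 5 days and 9.83, 9.86, 9.76 and 9.67 at 14 days. The 14-day arrays were below all others, with −0.46 ± 0.14 against chow (limma adjusted p = 0.644), but the dimmer second probe set of Xaf1 gave −0.02. Bst2, the tetherin that holds budding virions at the cell surface, was at 9.58, 9.82, 10.05 and 9.98 in chow, 9.95, 9.65, 9.65 and 10.27 at 5 days and 9.52, 9.62, 9.62 and 9.53 at 14 days. Its 14-day arrays were below every 5-day array and overlapped with chow array 1, at −0.29 ± 0.14 from chow and 0.02 ± 0.14 at 5 days. The 5-day value of Bst2 was −0.11 without 5-day array 4. Rsad2 encodes viperin, a radical SAM enzyme that makes a chain-terminating nucleotide. It stood at 9.80, 9.51, 10.18 and 10.24 in chow, 9.80, 9.69, 9.66 and 10.56 at 5 days and 9.54, 9.79, 9.44 and 9.67 at 14 days. The highest of the 12 was 5-day array 4, and the 5-day mean difference of −0.00 ± 0.21 was −0.21 without that array. At 14 days Rsad2 differed by −0.32 ± 0.21. Cmpk2, which supplies the nucleotide for viperin from the neighbouring locus on chromosome 12, differed by −0.30 ± 0.19 and −0.45 ± 0.19.

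Mx1, of the dynamin-like GTPase family, was dim on these arrays, with a mean of 6.16 under the 40th percentile of all probe sets (7.64). It stood at 6.17, 6.17, 6.26 and 6.31 in chow, 6.30, 6.21, 6.11 and 6.05 at 5 days and 6.00, 6.17, 6.10 and 6.06 at 14 days. The difference was −0.14 ± 0.06 at 14 days (limma adjusted p = 0.704), with 14-day array 2 at the lower edge of the chow range. Its neighbour Mx2 differed by 0.02 ± 0.06. Rtp4, an interferon-induced chaperone, differed by −0.63 ± 0.22 at 14 days and Trim30a, a ubiquitin ligase that restrains inflammatory signalling, by −0.26 ± 0.16. Samd9l and Ifi35 were the members with the highest 14-day differences beside Mx2, at 0.03 ± 0.17 and 0.02 ± 0.10. In Samd9l, 14-day array 4 was the highest of the 12 at 11.47, and the difference was −0.15 without it. The 3 probe sets of Ifi35 gave 0.02, −0.02 and −0.09.

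PARP9 and DTX3L form a ubiquitin ligase complex, and PARP14 is a related ADP-ribosyltransferase encoded beside them on chromosome 16. Parp9 stood at 11.12, 11.11, 11.07 and 11.05 in chow, 10.90, 10.84, 10.99 and 11.34 at 5 days and 11.31, 10.96, 11.26 and 10.53 at 14 days. The 5-day arrays 1 to 3 were below chow and array 4 above it, and at 14 days arrays 1 and 3 were above and arrays 2 and 4 below. The mean differences were −0.07 ± 0.16 at both times, and the 14-day value was 0.09 without both HFD arrays numbered 4. Dtx3l gave −0.26 ± 0.13 at 5 days and −0.12 ± 0.13 at 14 days, and Parp14 −0.24 ± 0.13 and −0.22 ± 0.13. Without 14-day array 4, Dtx3l was at 0.00 at 14 days, and without 5-day array 4, Parp14 was at −0.37 at 5 days. A second, dimmer probe set of Parp14 gave 0.10 at 5 days.

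The GTPases had the lowest median of the roles at 14 days, −0.65 over 5 members, and −0.37 at 5 days. The median GTPase stood at −0.43, −0.54, 0.44 and 0.44 from its chow mean in chow arrays 1 to 4, at −0.34, −0.57, −0.59 and −0.02 in the 5-day arrays and at −0.45, −0.50, −0.49 and −1.12 in the 14-day arrays. Chow arrays 1 and 2 thus lay at the level of 14-day arrays 1 to 3. The list's 5-day median was −0.21 without chow array 3 and −0.14 without chow array 4, and its 14-day median −0.44 and −0.47. Immunity-related GTPases (Irgm1, Igtp, Iigp1) and guanylate-binding proteins (Gbp2, Gbp3) act on the membranes around intracellular pathogens. Igtp stood at 10.09, 10.37, 11.11 and 11.03 in chow, 10.01, 9.94, 9.88 and 10.09 at 5 days and 10.14, 10.18, 9.86 and 9.81 at 14 days. The highest 5-day array lay just below the lowest chow array, both 10.09 after rounding, and at 14 days arrays 1 and 2 were above chow array 1. The difference was −0.67 ± 0.20 at 5 days (limma adjusted p = 0.391) and −0.65 ± 0.20 at 14 days (adjusted p = 0.662), and at 14 days it was −0.50 without chow array 3. Irgm1, which regulates the other GTPases and autophagy, stood at 9.89, 9.92, 10.40 and 10.52 in chow, 9.84, 9.74, 9.75 and 9.91 at 5 days and 9.73, 9.84, 9.70 and 9.64 at 14 days. The 14-day arrays were below chow and 5-day array 4 reached into it, with −0.46 ± 0.13 (adjusted p = 0.626) and −0.37 ± 0.13 (adjusted p = 0.428).

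Gbp2 was at 10.90, 10.58, 11.45 and 11.56 in chow, 10.95, 10.89, 10.61 and 11.28 at 5 days and 11.14, 10.62, 11.26 and 10.01 at 14 days. Only 14-day array 4 lay below chow. The 14-day difference of −0.37 ± 0.29 was −0.12 without that array. Gbp3 differed by −0.36 ± 0.29 and −0.73 ± 0.29, the former −0.14 without chow array 4. Iigp1 had the largest chow spread of the members, an SD of 1.18, with 9.90, 9.96, 12.00 and 11.93 in the chow arrays. Its HFD arrays were at 10.37, 10.38, 10.15 and 11.19 and at 10.70, 10.10, 10.00 and 9.80, all but 1 of them within the chow range. The differences of −0.42 ± 0.48 and −0.79 ± 0.48 were within 2 standard errors of 0, and without chow array 3 they were −0.07 and −0.44.

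Upstream of these genes, the interferon ligands and receptors had medians within 0.1 of 0. Of the 9 measured ligands, 3 were lower at 5 days and 4 at 14 days, with medians of 0.02 and 0.01. At an unadjusted limma p under 0.05, 1 ligand was higher at 5 days and 2 at 14 days, and 0 were lower. Over all genes, 4.24% and 3.02% were higher and 5.39% and 3.96% lower at that p. The 2 ligands at 14 days were Ifna4 at 0.22 ± 0.07 and Ifna1 at 0.20 ± 0.08. Both are interferon alpha genes, whose near-identical copies a probe set may not tell apart. Ifnb1 and Ifng differed by −0.03 ± 0.09 and 0.01 ± 0.07 at 14 days. Over the 12 arrays, Ifna4, Ifna5, Ifna11, Ifnab and Ifng averaged 6.29, 7.46, 5.15, 5.82 and 5.40. These means lie under the 40th percentile of all probe sets (7.64), and Ifnb1 and Ifna2 stood just above it, at 7.72 and 7.75. Such dim signals limit what the ligand differences show. Among the 6 receptor chains 2 and 5 were lower, with medians of 0.02 and −0.08. Without 14-day array 4 the 14-day count was 2 with a median of 0.03, and without 5-day array 4 the 5-day count was 4 with a median of −0.06. The 14-day differences of Ifnar1, Ifnar2 and Ifngr1 were −0.03 ± 0.10, −0.08 ± 0.14 and −0.07 ± 0.13, with all 3 lowest in 14-day array 4. Without it they were 0.07, 0.02 and 0.05. Of 10 kinases and transcription factors of the pathway, 7 were lower in each comparison with chow, at medians of −0.04 and −0.08. The kinases Jak1 and Tyk2 differed by −0.05 ± 0.05 and 0.14 ± 0.08 at 14 days. Irf1, a factor induced by interferon gamma, differed by −0.29 ± 0.10 and −0.27 ± 0.10 at 5 and 14 days. Irf4 differed by −0.83 ± 0.21 and −0.73 ± 0.21. The adaptors and other sensors had medians of −0.00 and −0.02 over 9 genes (−0.07 at 5 days without 5-day array 4), and the negative regulators −0.01 and −0.06 over 6. No gene of these lists was called in any of the 3 comparisons.

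A wider list of 60 measured interferon-induced genes outside the members gave 48 lower at 5 days and 49 at 14 days, at medians of −0.11 and −0.16. At an unadjusted limma p under 0.05, 8 and 20 of them were lower and 0 and 0 higher. Over all genes, 5.39% and 3.96% were lower and 4.24% and 3.02% higher at that p. Slfn5, a schlafen family member, stood at −0.29 ± 0.13 and −0.51 ± 0.13, and Ifitm3, which blocks viral entry at endosomes, at −0.12 ± 0.10 and −0.40 ± 0.10. Trim21, the cytosolic antibody receptor, was at −0.27 ± 0.06 and −0.24 ± 0.06 (limma adjusted p = 0.353 and 0.575). Over the list, differences ran from −0.59 to 1.15 at 5 days and from −0.72 to 0.41 at 14 days. Isg20 was the highest at both times. It stood at 1.52 at 5 days without 5-day array 4 and at −0.27 at 14 days without 14-day array 4. Array by array, this list's medians were −0.07, −0.08, 0.08 and 0.10 in chow, −0.15, −0.20, −0.12 and 0.02 at 5 days and −0.19, −0.10, −0.19 and −0.26 at 14 days, with chow arrays 3 and 4 and 5-day array 4 above the rest as for the members.

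**Figure D4:**
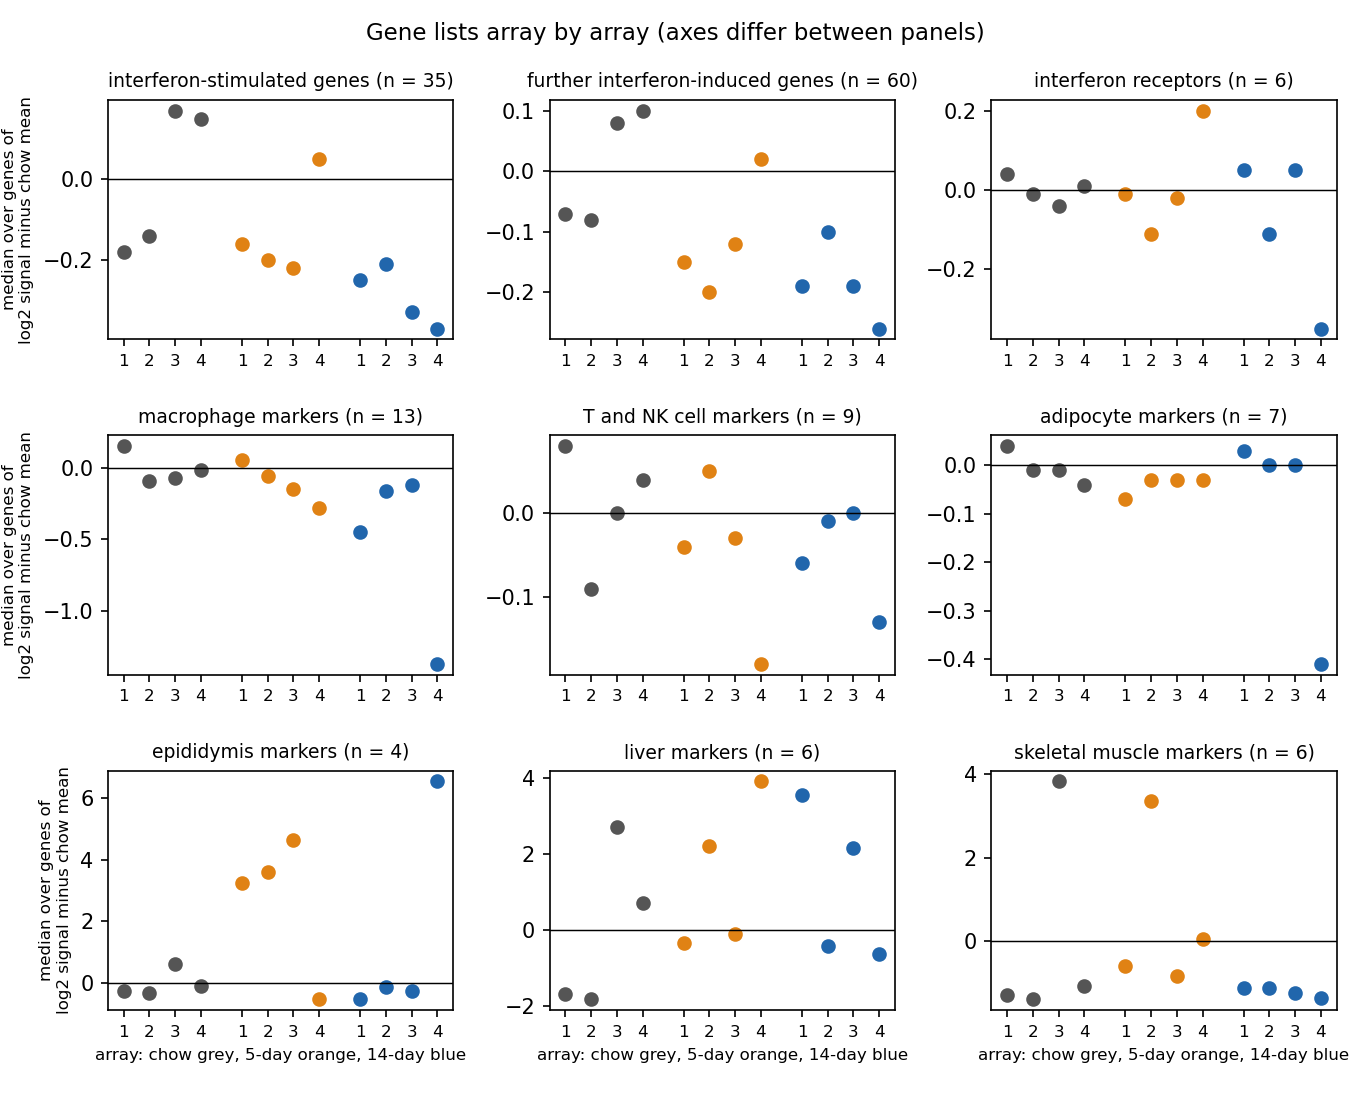
Median over a list's genes of log2 signal minus the chow mean (y axis, a separate scale in each panel) in the 12 arrays (x axis, by array number within chow, 5-day and 14-day HFD), for 9 gene lists. The members and the further interferon-induced genes are higher in chow arrays 3 and 4 and in 5-day array 4 than in the other arrays, macrophage markers are lowest in 14-day array 4 (−1.37), and epididymis markers are high in 5-day arrays 1 to 3 and 14-day array 4.

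Markers of other cells and tissues moved with some of these arrays, and their part in the members' values was not tested. All 13 macrophage markers were lower at 14 days, with a median of −0.49 and array values of −0.45, −0.16, −0.12 and −1.37, against −0.09 to 0.15 in chow. Their mean level ran from 11.22 to 11.43 in chow, 11.04 to 11.30 at 5 days and 10.03 to 11.17 at 14 days. The members' medians in 14-day arrays 1 to 4 were −0.25, −0.21, −0.33 and −0.37. Of 9 T and NK cell markers, 8 were lower at 14 days at a median of −0.05 (mean level 7.68 to 7.87 in chow and 7.64 to 7.82 at 14 days). The 5 markers of plasmacytoid dendritic cells, the specialised makers of type I interferon, had a median of 0.05, 1 lower and 4 higher, and mean levels of 7.93 to 8.38 and 8.05 to 8.08. The 1 lower was Cox6a2 at −0.41, and it was at 0.03 without chow array 3, whose skeletal muscle markers stood at 3.83. Conventional dendritic cell markers were lower in 5 of 5, at a median of −0.15, endothelial markers in 6 of 6, at −0.23, and neutrophil markers in 4 of 4, at −0.24. B cell markers were lower in 3 of 4, at −0.07. Without 14-day array 4, 12 of 13 macrophage markers were lower at a median of −0.25, and 1 of 4 B cell markers at 0.03. At 5 days, 12 of 13 macrophage markers were lower at −0.13, 4 of 4 B cell markers at −0.22 and 7 of 9 T and NK cell markers at −0.04. Conventional dendritic cell markers were then lower in 3 of 5 (−0.02), plasmacytoid in 1 of 5 (0.02), endothelial in 4 of 6 (−0.04) and neutrophil in 1 of 4 (0.02). Mesothelial markers were lower in 6 of 6 at both times, at medians of −0.75 and −0.68.

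The chow and HFD arrays also differed in foreign tissue. Liver markers stood at −1.67, −1.81, 2.72 and 0.72 from their chow mean in chow arrays 1 to 4, and skeletal muscle markers at −1.30, −1.41, 3.83 and −1.09. In the 5-day arrays liver markers were at −0.33, 2.21, −0.10 and 3.91, and in the 14-day arrays at 3.56, −0.40, 2.17 and −0.61. Skeletal muscle markers were there at −0.60, 3.36, −0.86 and 0.05, and at −1.13, −1.13, −1.25 and −1.39. Their relation to the member values was not tested. In 5-day array 4, epididymis markers were at −0.54, liver markers at 3.91, and the 3′ minus 5′ log2 signal of the pyruvate carboxylase control, a measure of RNA integrity, was 2.83 against 1.70 to 1.91 in chow. That of the transferrin receptor control was 1.55 in the same array, the lowest of the 12, against 1.59 to 1.80 in chow. In that array the Gapdh and beta-actin controls gave 0.27 and 0.50, against 0.06 to 0.13 and 0.44 to 0.47 in chow. These 2 controls were highest of the 12 in 14-day array 2, at 0.28 and 0.55. The pyruvate carboxylase value was 2.18 and 2.10 in 14-day arrays 2 and 4. When the fit took each array's epididymis marker mean as a term, an alternative chosen after seeing the data, 24 members were lower at 5 days and 32 at 14 days. Under it 0 members were called, and Oasl2 stood at −0.41 (adjusted p = 0.125) and −0.68 (adjusted p = 0.186) by limma. Without both HFD arrays numbered 4, 30 and 32 members were lower than in chow at 5 and 14 days, and 22 were lower at 14 than at 5 days. That left 3 members called at 5 days (Dtx3l, Ifih1 and Oasl2, all lower, beside 5.5% of all genes) and 0 at 14 days. Between the HFD groups 2 were then called, Irf9 lower and Dtx3l higher, beside 4.47% of all genes. In that fit epididymis markers were high in every 5-day array left and in no chow or 14-day array left. Diet and epididymis RNA therefore cannot be told apart in its 5-day and between-HFD calls.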

How the data were processed

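Labelled RNA from 12 adipose tissue samples was hybridised to 1 Affymetrix array each. The authors deposited 1 table of 45098 probe sets. Its values are log2 signals as deposited by the authors, a scale judged from their range of 4.18 to 15.50. Probe summary and normalization are not given in the sources used here. Of the probe sets, 61 are controls, 34945 carry 1 gene symbol, 932 several and 9160 none, per the platform annotation. RefSeq (GRCm38.p6) was matched by Entrez ID for 34741 and altered 0 symbols.

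Each gene was read from the probe set of highest mean over all arrays, with no filter on signal, and 15 members have several. The 3 groups were fitted together in limma 3.58.1 (R 4.3.3; eBayes with trend, two-sided) over 18193 genes with Benjamini-Hochberg adjustment and a threshold of 0.05. The procedure was tested on simulated data with independent normal noise in each gene. That setting lacks the tissue differences between arrays seen here, so it does not show how the procedure fares with them. Arrays give no counts, so their number limits the precision.

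The members, lists and tests were chosen with earlier results of these data known. Members given array by array are the 4 of smallest p in each comparison and fixed genes of each role. Other genes named are the 4 of smallest p in the interferon pathway lists at 14 days and fixed receptor, ligand, kinase and factor genes. Array values of Xaf1, Irf9 and Iigp1, single values of Samd9l and Isg20, ligands other than Ifnb1 and Ifng, and the tissue markers named stand outside that rule. They were chosen after their values were seen. The fit was repeated with arrays centred on their median, with quantile normalization, with filters at the 40th and 60th percentile, on probe sets averaged per gene, with eBayes untrended or robust, with array weights, on the 2 compared groups alone, with a replicate block and without each array in turn. After seeing the data, a term for epididymis markers, a fit lacking the HFD arrays numbered 4, and differences of group means without each array for every list and member were added.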

Additional observations from a re-analysis of the deposited data

Results flagged for a closer look

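Among 105 groups of 4 arrays (35 members in 3 groups), 7 held an array that stood apart from the other 3 by Dixon's criterion (its gap to the nearest array as a share of the group's range), where chance gives about 1 in 20. In 5-day array 4, Rsad2 stood at 10.56 (other arrays 9.66 to 9.80), Rtp4 at 10.15 (9.60 to 9.69), Ifit1 at 8.75 (8.26 to 8.31), Usp18 at 8.60 (8.07 to 8.16) and Dhx58 at 8.24 (7.81 to 7.85). These 5 are all above the rest of their group. In 14-day array 4, Dhx58 stood at 7.49 (7.92 to 7.97), below its group, and Irf9 at 10.56 (9.08 to 9.29), above it. No chow group met the criterion. The chow values of Iigp1 lay in pairs, arrays 1 and 2 at 9.90 and 9.96 and arrays 3 and 4 at 12.00 and 11.93, a pattern this criterion does not detect.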

How the results depend on the processing

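The counts of members lower than in chow kept within 1.5 times their main value under all alternatives run. Leaving out each array gave 24 to 31 at 5 days, 31 to 33 at 14 days and 25 to 30 between the HFD groups. Calls depended on the arrays and their weights. Over all genes, 0 were called in each comparison with all arrays weighted alike. Array weights gave 1845, 1843 and 1246 calls (5 days, 14 days, 14 against 5 days), of which 6, 13 and 4 were members. Leaving out both arrays numbered 4 gave 1000, 1 and 813, with 3, 0 and 2 members. The epididymis covariate gave 365, 0 and 19, and the 2 compared groups alone gave 126 at 5 days, with 0 members. Leaving out 1 array gave 0 to 90 calls at 5 days (90 without 14-day array 4, 2 without 14-day array 2) and 0 to 20 at 14 days (20 without 14-day array 2, 2 without 14-day array 4). The cause was not tested.

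Small differences reversed in sign. With array weights, Bst2 was −0.06 at 5 days, Gbp2 0.22 and Parp9 0.31 (limma adjusted p = 0.0493) between the HFD groups, and Parp9 0.16 at 14 days. Without both arrays numbered 4, Bst2 was −0.11 at 5 days, Parp9 0.09 at 14 days, and Gbp2 0.19, Oasl2 0.03 and Parp9 0.27 between the HFD groups. With the epididymis covariate, Gbp2 was 0.19, Ifit3 0.05, Parp9 0.22 and Rsad2 0.13 at 5 days, Parp9 0.06 at 14 days, and Ifih1 −0.08 and Igtp −0.02 between the HFD groups. Median centring gave Rsad2 0.01 at 5 days and Parp9 0.00 between the HFD groups, and quantile normalization gave Ifih1 −0.00 there. Leaving out 1 array gave, at 5 days, −0.11 to 0.10 for Bst2, −0.19 to 0.04 for Ifit3 and −0.21 to 0.10 for Rsad2. At 14 days Parp9 ran from −0.17 to 0.09. Between the HFD groups the ranges were −0.34 to 0.08 for Gbp2, −0.04 to 0.09 for Ifih1, −0.04 to 0.08 for Igtp and −0.10 to 0.16 for Parp9. The cause was not tested.

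The replicate numbers do not pair the arrays: over 12 same-numbered pairs of deviations r ran from −0.72 to 0.41, 2 were above 0.1, and 1 array was closest to its own number. With the number as a replicate block, 0 genes and 0 members were called, and Oasl2 stood at adjusted p = 0.481 and 0.62 (limma). The 4 arrays of a group limit the precision, and for Mx1 and several interferon ligands so does a signal under the 40th percentile.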

Other observations

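Members are not independent readings of a condition, and many lie close together. By RefSeq positions, 19 of the 35 measured members lie within 1 Mb of another member, in 8 loci: Rsad2 with Cmpk2, Parp14 with Dtx3l and Parp9, Mx1 with Mx2, the 3 IFIT genes, Gbp2 with Gbp3, Oasl1 with Oasl2, the other 3 OAS genes, and Dhx58 with Ifi35. Within a locus the values were not alike in each case: at 14 days against chow Oasl2 stood at −0.76 and Oasl1 at −0.10, while Ifit1, Ifit2 and Ifit3 stood at −0.58, −0.43 and −0.39. Over all 12 arrays, chow arrays 3 and 4 each held the highest value of 12 members. The lowest value of 16 members was in 14-day array 4, of 7 in 14-day array 3 and of 6 in 14-day array 1.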
